A study of Mus musculus with 9 samples.

Results

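Spermidine added to R837 was compared with R837 alone in mouse dendritic cells that were raised from monocytes of the bone marrow and present antigen to T cells. The comparison holds 6 of the 9 libraries of the series, taken by title and treatment label: 3 of cells given R837 with spermidine and 3 of cells given R837. The other 3 libraries, of control cells without stimulation, are given here as levels and did not enter the test. No group had spermidine without R837, and below, with spermidine means with R837 and spermidine. An effect of spermidine by itself thus cannot be told apart from an effect on the response to R837. All groups were C57BL/6 cells, grown for 7 days with IL-4 at 50 ng/mL and GM-CSF at 100 ng/mL before a sort by flow cytometry. For both R837 groups the protocols give priming with interferon α over 24 h before 18 h with R837, so the groups compared share the priming. The labels do not say whether the controls were primed, whether replicates are separate cultures or animals, or which concentrations of R837 and spermidine were used. P-values thus rest on the spread among libraries, part or all of which may be technical.

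R837 (imiquimod) is a synthetic imidazoquinoline that activates Toll-like receptor 7, an endosomal receptor for single-stranded RNA. Through the adaptor MyD88 it activates NF-κB and MAP kinases, which switch on genes of cytokines, chemokines and co-stimulatory molecules. Spermidine is a natural polyamine, a small positively charged molecule that cells make from ornithine and can take up. A separate stress programme is run by the transcription factor NRF2, which binds the antioxidant response element in the promoters of genes for glutathione, NADPH and heme breakdown. The repressor BACH1 competes for the same element and loses its grip when heme rises.

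Values are FPKM, fragments scaled to transcript length and to the mapped fragments of the library, and every change below is a difference in log2(FPKM + 1) with its standard error. On this scale the change of a gene near or below 1 FPKM is understated. Rose and fell are used of genes whose limma p-value, adjusted over all 11140 tested genes by the Benjamini-Hochberg method, was under 0.05. The tested genes reached 1 FPKM in 3 or more of the 6 libraries. The depth, estimated roughly from the low values, was 10700000 to 14400000 units in the R837 with spermidine libraries. It was 11000000 to 12600000 in the R837 libraries and 11400000 to 11500000 in the controls.

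The R837 libraries were not alike. In replicates 2 and 3 transcripts of red blood cells stood out: the summed FPKM of 20 red blood cell markers was 52.3 to 55.5 in the R837 with spermidine libraries, 72.5, 361 and 2061 in R837 replicates 1, 2 and 3, and 35.7 to 43.9 in the controls. The β-globin gene Hbb-bs, below the filter, was listed at 0.0917, 0.0676 and 0 FPKM with spermidine, at 0, 97.99 and 815 with R837 and at 0.0572, 0 and 0.0569 in the controls. Summed over 12 nuclear and small structural RNAs, a sign of RNA quality, the FPKM was 112, 110.1 and 95.8 with spermidine, 94.9, 126 and 455 with R837 and 85.3, 161 and 144 in the controls, with R837 replicate 3 highest. R837 replicate 2 was low for several abundant myeloid genes, among them Chil3, a chitinase-like lectin, with 5482, 6403 and 6385 FPKM with spermidine and 4133, 1665 and 4909 with R837. Its weight in a limma fit that weights libraries was 0.205, against 1.02 to 2.15 for the other 5. The part of these differences in the results below was not tested. Calls of single genes are therefore followed through the fits that leave out 1 library. The fit without both replicates 2 and 3, which leaves 1 R837 library, is given for counts and directions. Some calls given below ended in that fit, and they are not marked gene by gene.

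Some markers of the labelled cell type were abundant, and others were low or absent. Cd74, the class II chaperone, had a mean of 2186 FPKM with spermidine, 2467 with R837 and 2115 in the controls, and the integrin Itgax (CD11c) had 91.3 with spermidine, 103 with R837 and 91.7 in the controls. Ccr7, on the same list, averaged 123 FPKM with spermidine, 107 with R837 and 80.3 in the controls. Low in the same order were Zbtb46 (1.52, 1.98 and 0.596), Clec10a (0.483, 0.421 and 0.743) and Flt3 (0.276, 0.164 and 0.113). Cd209a, a lectin of monocyte-derived dendritic cells, was listed at 0 in all 9 libraries, which can also be a failed estimate. Monocyte and macrophage genes were abundant as well, with Lyz2, lysozyme, at a mean of 5532 FPKM with spermidine, 4841 with R837 and 6685 in the controls. Summed dendritic markers ran from 4389.8 to 4617 FPKM with spermidine and from 4749.5 to 5613 with R837. Without Cd74 the sum was 2359, 2235 and 2379 with spermidine and 2574, 2879 and 2515 with R837. Monocyte and macrophage markers ran from 7431 to 7745 FPKM with spermidine and from 7081 to 7239 with R837, and most of this sum is Lyz2. Without Lyz2 it was 2221, 1969 and 2108 FPKM with spermidine and 2397, 2352 and 2167 with R837, the reverse order.

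**Figure D1:**
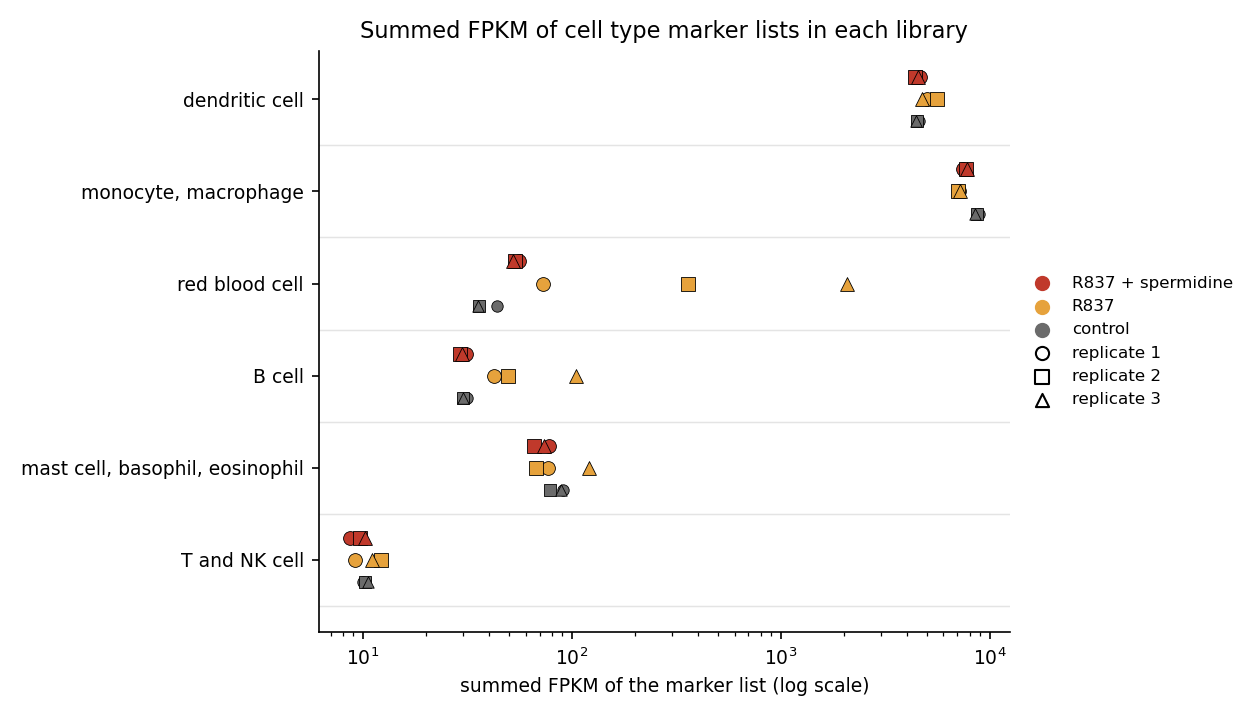
Summed FPKM of 6 cell type marker lists (x axis, log scale) in the 3 R837 with spermidine, 3 R837 and 3 control libraries. Each list has a row, and each point is a library. The red blood cell sum stands out in R837 replicates 2 and 3 and the B cell sum in replicate 3, while dendritic and monocyte sums lie close together.

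Adding spermidine moved genes in both directions. Of 11140 tested genes 312 rose (2.80%) and 484 fell (4.34%), together 796 or 7.15%, and 51 of the risen and 52 of the fallen changed by 2-fold or more. Over all tested genes the median log2 change was -0.02. Counts of called genes in the lists below stand beside these shares of all tested genes, 2.80% risen and 4.34% fallen. Libraries of both groups did not overlap for any of the 796 genes, where 33.4% of all tested genes had no overlap. The number of calls hung on the libraries in the fit. Leaving out R837 with spermidine replicates 1, 2 and 3 in turn, 115, 71 and 65 genes rose (1.03%, 0.637% and 0.583%) and 165, 111 and 85 fell (1.48%, 0.996% and 0.763%). Leaving out R837 replicates 1, 2 and 3 in turn, 118, 500 and 203 genes rose (1.06%, 4.49% and 1.82%) and 183, 600 and 233 fell (1.64%, 5.39% and 2.09%). Called in every one of these 6 fits were 128 genes, 56 risen and 72 fallen. Where counts from these 6 fits are given below, they follow the order of replicates 1, 2 and 3 of each group. Of the 84 called genes given with values below, 52 are among them. Without R837 replicates 2 and 3 together, 137 genes rose (1.23%) and 118 fell (1.06%), 203 of the 796 were among them, and all 796 kept their direction.

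**Figure D2:**
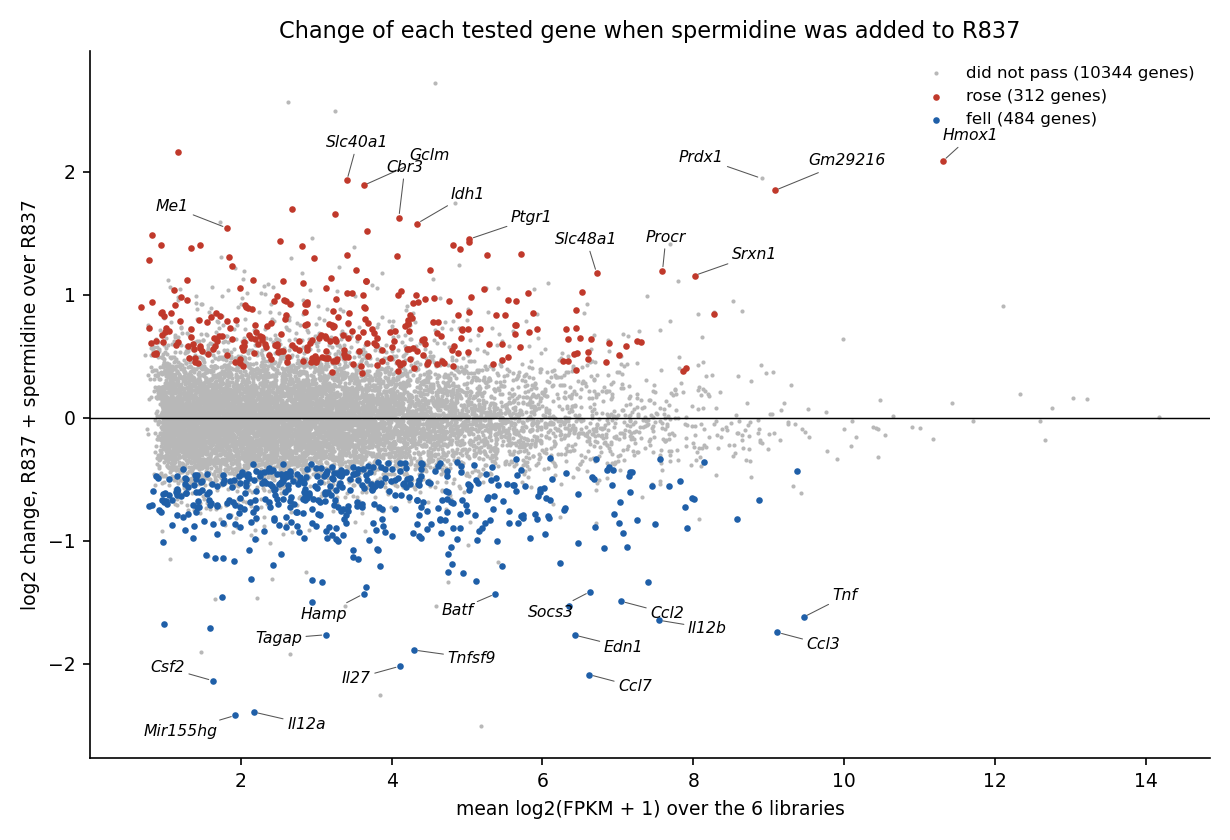
Log2 change of each of the 11140 tested genes (y axis, R837 with spermidine over R837) against its mean log2(FPKM + 1) over the 6 libraries (x axis), with the 312 risen genes in red, the 484 fallen genes in blue and the rest in grey. Hmox1 stands far right among the risen genes and Tnf and Ccl3 among the fallen ones, while most abundant genes lie near 0.

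Genes of heme breakdown and iron export rose, and the gene of the hormone that blocks iron export fell. Hmox1 (ENSMUSG00000005413.8, chromosome 8, 75093621 to 75100589 on mm10) encodes heme oxygenase 1, which splits heme into biliverdin, iron and carbon monoxide. It had 5899, 4768 and 5109.8 FPKM with spermidine, 1259, 1319.9 and 1124 with R837 and 1093, 1117 and 1199.5 in the controls. Every spermidine library stood above every other one, R837 and control libraries lay side by side, and the log2 change was 2.09 ± 0.12 (limma adjusted p = 0.00063). By mean FPKM Hmox1 had rank 9 among the tested genes with spermidine and rank 22 with R837, and its gain made up 47.6% of the summed FPKM gain of all risen genes.

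Slc40a1 (ENSMUSG00000025993.10, chromosome 1, 45908068 to 45926523) encodes ferroportin, which carries iron out of the cell. Its values were 15.7, 22.2 and 21.98 FPKM with spermidine, 4.33, 4.03 and 4.995 with R837 and 19.2, 18.5 and 16.4 in the controls, so the spermidine libraries overlapped the controls and stood clear of R837 (log2 change 1.93 ± 0.15, adjusted p = 0.00152). Hamp (ENSMUSG00000050440.8, chromosome 7, 30942368 to 30944032) encodes hepcidin, the peptide that binds ferroportin and has it degraded. It moved the other way, with 6.05, 5.87 and 7.81 FPKM with spermidine, 21.8, 22.03 and 15.01 with R837 and 0.322, 0.952 and 0.607 in the controls (log2 change -1.43 ± 0.17, adjusted p = 0.00667). Both groups with R837 lay above the controls, and the spermidine libraries lay between the others. Slc48a1, the transporter HRG1 that moves heme out of endosomes and lysosomes, had 166, 150.1 and 156 FPKM with spermidine and 70.4, 72.4 and 64.9 with R837, a change of 1.17 ± 0.09. Its R837 values overlapped those of the controls, 69.7, 66.7 and 71.6 FPKM.

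Of 33 tested genes of heme and iron handling, 5 rose and 1 fell, with a list median of 0.07. Beside Hmox1, Slc40a1 and Slc48a1 these were Blvrb, a biliverdin reductase (0.50), and Bach1 (0.98), the heme-sensing repressor, and Slc39a14, an importer of zinc and iron, fell (-0.44), while Hamp was not on the list. The Blvrb call ended without any 1 library other than R837 replicate 2 (adjusted p 0.0773 to 0.129), and that of Slc39a14 without any 1 library other than R837 replicate 2 (adjusted p 0.0809 to 0.143). Bach1 had 32.5 ± 6.701 FPKM with spermidine, 15.8 ± 1.39 with R837 and 25.9 ± 1.78 in the controls (SD, n = 3 each). Its call ended without R837 with spermidine replicate 3 (limma adjusted p = 0.0631) or R837 replicate 1 (0.0552). The abundant ferritin genes, which encode the iron store of the cell, did not pass. Fth1 had 18556 ± 796 FPKM with spermidine and 18441 ± 776 with R837 (log2 change 0.01 ± 0.09). Ftl1 had 8912 ± 1034 FPKM with spermidine and 7992 ± 983 with R837 (0.16 ± 0.13). The number of risen members was 4, 4 and 3 without 1 spermidine library each and 3, 6 and 4 without 1 R837 library each, and 4 without R837 replicates 2 and 3, the libraries with red blood cell transcripts.

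Glutathione is made in steps by glutamate-cysteine ligase, whose subunits are encoded by Gclc and Gclm, and by glutathione synthetase, encoded by Gss. All of these genes rose. Gclm (ENSMUSG00000028124.15, chromosome 3, 122245557 to 122270732), the modifier subunit, had 17.6, 21.9 and 30.7 FPKM with spermidine, 5.104, 5.198 and 6.03 with R837 and 6.57, 6.45 and 9.54 in the controls (log2 change 1.89 ± 0.19, adjusted p = 0.00373). Gss had 10.5, 9.41 and 11.4 FPKM with spermidine, 2.94, 3.27 and 3.82 with R837 and 3.704, 3.41 and 3.41 in the controls, a change of 1.40 ± 0.12 (adjusted p = 0.00193). For both genes the spermidine libraries lay above all 6 others. The catalytic subunit gene Gclc had 56.2, 63.4 and 60.3 FPKM with spermidine and 28.6, 16.8 and 26.5 with R837, with replicate 2 lowest. Its rise of 1.32 ± 0.19 passed (adjusted p = 0.0108) but not without R837 with spermidine replicate 2 or 3 (0.0543 and 0.0562). Of 24 tested glutathione genes 5 rose and 0 fell (limma; 11 higher and 1 lower at an unadjusted p under 0.05), and the list median was 0.21. Esd (0.62) and Ggct (0.46), which act on glutathione adducts and γ-glutamyl peptides, were the others. The Esd call ended without R837 with spermidine replicates 2 or 3 (0.0577 and 0.0658), and the Ggct call without any 1 library other than R837 replicate 2 (adjusted p 0.0532 to 0.136). The count of risen members was 4, 2 and 2 without 1 spermidine library each and 4, 10 and 5 without 1 R837 library each.

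Enzymes that make NADPH, the electron source for reducing glutathione and thioredoxin, included a pair of steep rises. Me1, the cytosolic malic enzyme, had 5.13, 4.93 and 4.96 FPKM with spermidine, 1.11, 1.07 and 1 with R837 and 1.03, 1.52 and 1.04 in the controls (log2 change 1.54 ± 0.09, adjusted p = 0.00063). The spermidine libraries lay within a narrow range, 4.72 times the R837 mean. Idh1, the cytosolic isocitrate dehydrogenase, had 30.1, 36.7 and 35.3 FPKM with spermidine, 12.4, 8.07 and 12.2 with R837 and 27.6, 26.8 and 28.3 in the controls (1.58 ± 0.17). It was low with R837 and at or above the control values with spermidine. Pgd, of the pentose phosphate pathway, was the third of 15 tested members to rise, by 0.61, a call that ended without any 1 library other than R837 replicate 2 (adjusted p 0.0658 to 0.113). None fell (limma; 6 higher and 1 lower at an unadjusted p under 0.05).

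The wider list of NRF2 targets had 19 of 42 tested members higher and 1 lower, with a median of 0.46 against -0.02 for all genes. Cbr3, a carbonyl reductase, had 29.2, 28.2 and 29.8 FPKM with spermidine, 9.597, 8.800 and 7.88 with R837 and 15.6, 14.3 and 15.5 in the controls (1.63 ± 0.10). Srxn1, the sulfiredoxin that restores oxidised peroxiredoxins, had 393, 395 and 369.9 FPKM with spermidine and 183, 146 and 192 with R837 (1.16 ± 0.12). In both genes the groups stood well apart. The quinone reductase gene Nqo1 averaged 23.96 ± 0.812 FPKM with spermidine and 11.3 ± 2.096 with R837 (SD, n = 3 each), and Osgin1, an inhibitor of growth induced by oxidative stress, 52.8 ± 6.08 and 25.1 ± 1.95. Catalase (Cat) rose by 0.87. Thioredoxin reductase (Txnrd1) rose by 0.62, a call that ended without R837 with spermidine replicate 2 or 3 (limma adjusted p = 0.0678 and 0.0807) and without R837 replicate 1 (0.0563). The member that fell was Maff (-0.54), a small MAF protein that pairs with NRF2 and also an early response gene, a call that ended without any 1 library other than R837 replicate 2 (adjusted p 0.0592 to 0.149). The transcript of NRF2 itself, Nfe2l2, had 127 ± 3.68 FPKM with spermidine and 142 ± 12.7 with R837 and did not pass (-0.16 ± 0.09).

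Prdx1, a peroxiredoxin that breaks down hydrogen peroxide, had 842, 1029 and 965 FPKM with spermidine and 339, 96.8 and 439 with R837. R837 replicate 2 was far below the other libraries, and a difference of 1.95 ± 0.51 did not pass (adjusted p = 0.0668), while without that library it did (0.00659). The count of risen NRF2 targets was 14, 11 and 10 without 1 spermidine library each and 11, 25 and 16 without 1 R837 library each, and 16 without R837 replicates 2 and 3 together.

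**Figure D3:**
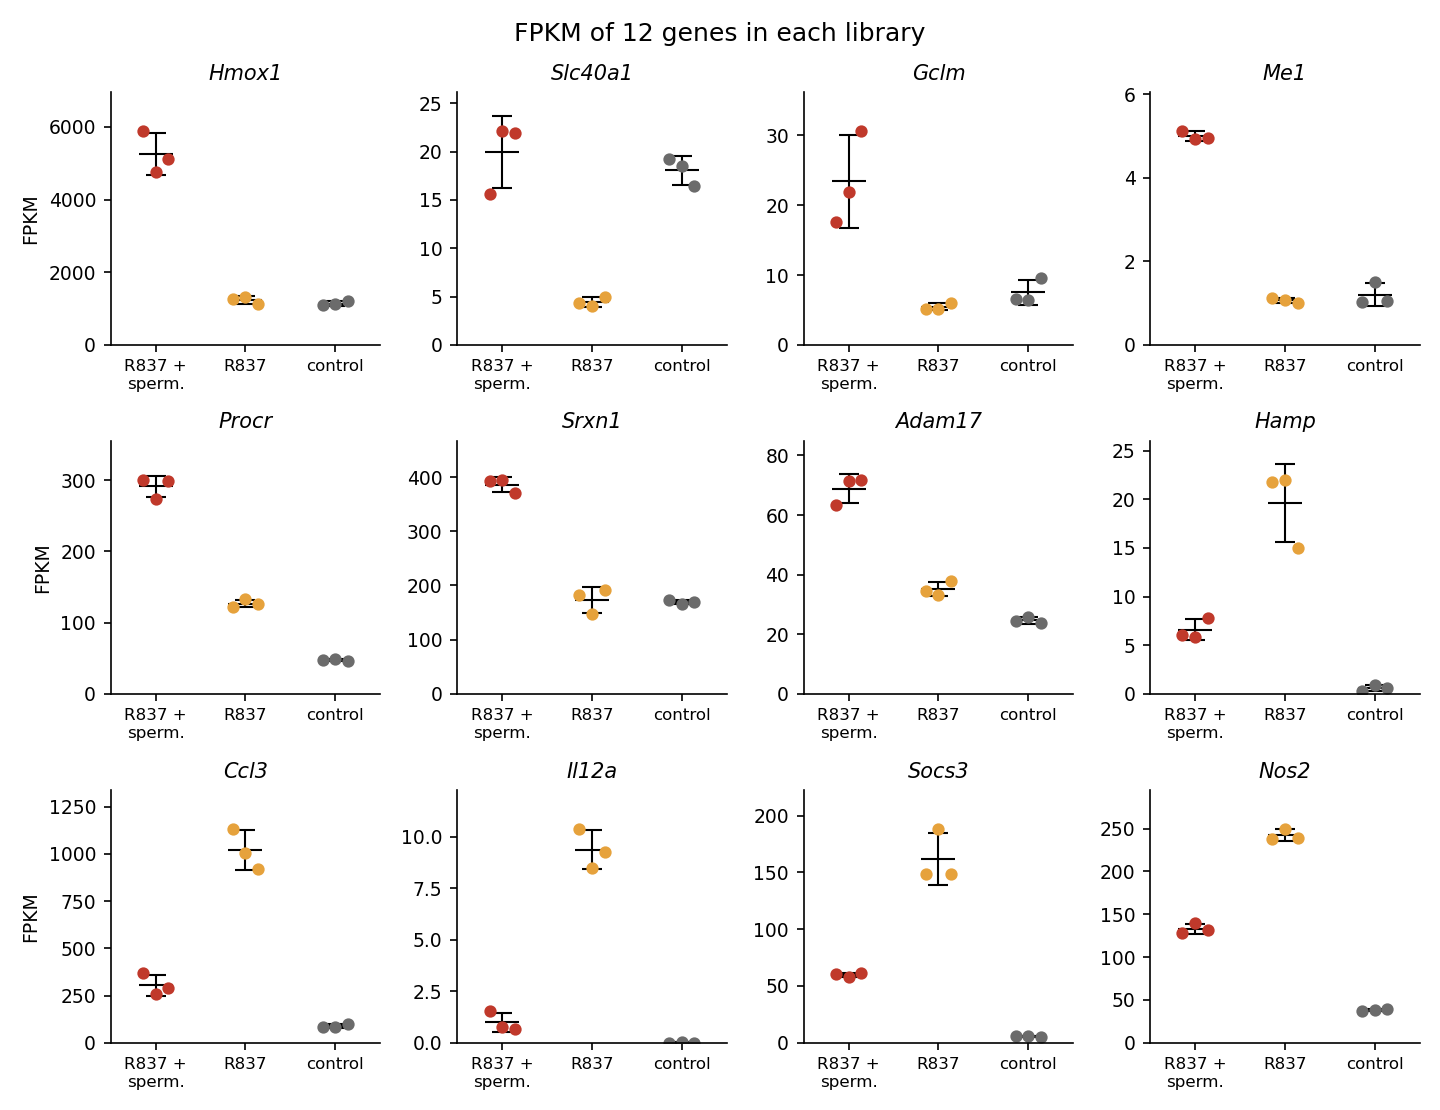
FPKM of 12 genes (y axes, each from 0) in the 3 R837 with spermidine, 3 R837 and 3 control libraries; points are libraries, and bars show the mean and the SD. Hmox1, Gclm and Me1 were high only in the R837 with spermidine libraries, and Slc40a1 was low with R837 alone. Hamp, Ccl3, Il12a, Socs3 and Nos2 with spermidine lay between R837 and the controls.

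Promoters of a pair of risen genes are shown because NRF2 targets are known to be switched on through the antioxidant response element. In RefSeq promoter sequences (GRCm38.p6; 250 bases before to 50 after each start, 27025 genes) the core TGACNNNGC was sought on both strands. It was found for 26.24% of the 202 risen genes with an entry and for 14.5% of the 338 fallen ones. Among tested genes with an entry the share was 17.35%, and among all genes 13.99%. Of 35 NRF2 targets with an entry 14 held it. The promoters of Gclm (chr3:122245307-122245606, + strand) and Me1 (chr9:86695865-86696164, - strand) follow, with the match in capitals. In Gclm it begins 134 bases before the start and reads as the core on the opposite strand, and in Me1 it begins 6 bases before the start on the same strand and contains the AP-1 motif TGACTCA.
Gclm: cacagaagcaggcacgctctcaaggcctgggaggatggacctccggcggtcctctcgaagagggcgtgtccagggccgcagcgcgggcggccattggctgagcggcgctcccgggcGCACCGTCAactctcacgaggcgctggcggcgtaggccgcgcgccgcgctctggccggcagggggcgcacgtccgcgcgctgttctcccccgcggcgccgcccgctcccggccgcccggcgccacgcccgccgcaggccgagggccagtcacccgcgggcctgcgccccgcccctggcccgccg
Me1: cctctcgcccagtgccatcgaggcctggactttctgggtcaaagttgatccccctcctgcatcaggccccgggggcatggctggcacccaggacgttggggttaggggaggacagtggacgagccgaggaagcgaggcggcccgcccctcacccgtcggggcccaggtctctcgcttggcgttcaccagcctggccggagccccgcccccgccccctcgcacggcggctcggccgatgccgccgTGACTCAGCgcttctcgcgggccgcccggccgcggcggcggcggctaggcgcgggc

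Outside these programmes steep rises were seen in genes of surface receptors, lipid mediators and transcription factors. Procr, the endothelial protein C receptor, had 301, 274 and 299 FPKM with spermidine, 122, 133 and 126 with R837 and 47.03, 48.2 and 45.7 in the controls (log2 change 1.19 ± 0.08, adjusted p = 0.00114). R837 libraries already lay above the controls, and the spermidine libraries lay higher again. Adam17, the protease that sheds tumour necrosis factor and its receptors from the surface, had the same order, with 63.3, 71.3 and 71.9 FPKM with spermidine, 34.6, 33.2 and 37.9 with R837 and 24.3, 25.9 and 23.6 in the controls (0.95 ± 0.10). Cd300lb, an activating receptor of myeloid cells, averaged 33.6 ± 3.36 FPKM with spermidine and 13.96 ± 0.503 with R837 (SD, n = 3 each). Ypel5, a small protein with a part in ubiquitin ligase complexes, had 50.5, 50.6 and 56.9 FPKM with spermidine and 19.3, 18.7 and 18.7 with R837 (1.43 ± 0.09), with the controls at 24.6, 23.2 and 25.98. Il1f9, which encodes the cytokine IL-36γ, had 42.98, 53.7 and 45.7 FPKM with spermidine and 22.8, 10.1 and 23.5 with R837, where replicate 2 was low. It passed over all 6 libraries (1.37 ± 0.30, adjusted p = 0.0394) but not without R837 with spermidine replicates 1, 2 or 3 (0.094, 0.142 and 0.129) or R837 replicate 1 (0.0672).

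Ptgr1, which inactivates leukotriene B4 and reduces prostaglandin metabolites, had 44.5, 57.1 and 59.01 FPKM with spermidine, 16.9, 21.2 and 18.5 with R837 and 38.1, 35.4 and 31.3 in the controls (1.45 ± 0.14). The R837 libraries lay below both other groups. Ptgs2 (COX-2), the enzyme that starts prostaglandin synthesis, moved the other way, with 62.3, 65.1 and 56.6 FPKM with spermidine and 153, 94.8 and 135 with R837 (-1.02 ± 0.17, adjusted p = 0.0201). Its call ended without any 1 library other than R837 replicate 2 (adjusted p 0.0548 to 0.0902). The prostaglandin E2 receptor gene Ptger2 (0.49) completed the 2 risen and 1 fallen of 17 tested genes of this pathway, and its own call ended without any 1 library other than R837 replicate 2 (adjusted p 0.0617 to 0.122).

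Genes on the cytokine and chemokine list fell, and none on it rose. Il1f9, given above, is not on the list. Of 36 tested members 22 fell and 0 rose by limma, against 4.34% and 2.80% of all genes, with a median change of -0.89. At an unadjusted p under 0.05, 28 were lower and 1 higher. The number fallen was 17, 13 and 14 without 1 spermidine library each and 17, 24 and 18 without 1 R837 library each, and 17 without R837 replicates 2 and 3 together. In a bulk sample fewer cells making a transcript and less of it per cell cannot be told apart.

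Chemokines that draw in monocytes and T cells fell steeply. Ccl3 (ENSMUSG00000000982.5, chromosome 11, 83647844 to 83649355) had 367, 259 and 291 FPKM with spermidine, 1134, 1006 and 919 with R837 and 82.7, 81.4 and 100.5 in the controls (log2 change -1.75 ± 0.15, adjusted p = 0.00206). Ccl4 had 104, 100 and 114 FPKM with spermidine, 245, 324 and 242 with R837 and 35.9, 36.9 and 35.6 in the controls (-1.33 ± 0.13). For both genes every spermidine library lay below every R837 library and above every control. Ccl2 had 84.04, 68.3 and 81.7 FPKM with spermidine, 219, 218 and 225 with R837 and 54.2, 52.98 and 57.3 in the controls (-1.49 ± 0.10), with the R837 libraries close together. The chemokines Ccl17 (-0.85) and Ccl22 (-0.34), which bind CCR4 and are made by dendritic cells under IL-4, had smaller changes. The Ccl17 call ended without R837 with spermidine replicates 1 or 2 (0.0598 and 0.0623). The Ccl22 call ended without any 1 library other than R837 replicate 2 (adjusted p 0.11 to 0.181).

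Il12a (ENSMUSG00000027776.12, chromosome 3, 68690644 to 68698547) encodes p35, the subunit that pairs with p40 to make IL-12. It had 1.54, 0.788 and 0.683 FPKM with spermidine, 10.4, 8.49 and 9.25 with R837 and 0, 0.0396 and 0 in the controls (-2.39 ± 0.17, adjusted p = 0.00114). The spermidine libraries lay far below R837 and just above the controls. Colony-stimulating factors, which keep myeloid cells alive and make them divide, fell too. Csf1 had 103, 92.4 and 94.3 FPKM with spermidine, 186, 188 and 182 with R837 and 114, 116 and 119 in the controls (-0.94 ± 0.08), and Csf3 1.698, 2.03 and 2.18 FPKM with spermidine and 5.63, 5.13 and 4.997 with R837 (-1.08 ± 0.10). The spermidine libraries had less Csf1 transcript than the controls. Among members of the tumour necrosis factor family Tnfsf15 (TL1A) had 15.5, 16.7 and 17.1 FPKM with spermidine and 48.7, 30.3 and 45.8 with R837 (-1.26 ± 0.18), a call that ended without R837 with spermidine replicates 2 or 3 (0.0502 and 0.0502). The anti-inflammatory cytokine gene Il10 had 5.49, 5.57 and 6.77 FPKM with spermidine and 13.2, 12.6 and 12.9 with R837 (-1.01 ± 0.10). Il6 had 9.58, 6.77 and 8.25 FPKM with spermidine and 27.2, 6.88 and 22.1 with R837. R837 replicate 2 lay among the spermidine libraries, and the difference of -0.92 ± 0.44 did not pass (adjusted p = 0.246), while without that library it did (0.00592).

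Targets and feedback inhibitors of NF-κB fell in 10 of 23 cases and rose in 0 (limma; 16 lower and 0 higher at an unadjusted p under 0.05), with a median of -0.45. Tnfaip3, which encodes the deubiquitinase A20, had 65.2, 66.4 and 106 FPKM with spermidine and 139, 174 and 175 with R837 (-1.06 ± 0.20), with spermidine replicate 3 highest of its group. Its call ended without R837 with spermidine replicates 1 or 2 (0.0846 and 0.104) or R837 replicates 1, 2 or 3 (0.0539, 0.0522 and 0.0677). Nfkb2, the p100 precursor of the non-canonical arm, averaged 95.6 ± 3.74 FPKM with spermidine and 175 ± 23.8 with R837 (SD, n = 3 each; -0.86), a call that ended without R837 with spermidine replicate 3 (0.0502). Upstream, 2 of 30 tested genes of Toll-like receptor signalling fell and 0 rose (limma; 1 higher and 5 lower at an unadjusted p under 0.05). These were Ikbkb, a kinase of the NF-κB pathway, and Ikbke, the kinase IKKε that activates IRF3 and IRF7. The number fallen was 1, 1 and 1 without 1 spermidine library each and 1, 3 and 1 without 1 R837 library each, and the Ikbkb call ended without any 1 library other than R837 replicate 2 (adjusted p 0.0517 to 0.0847). Ikbke had 26.3, 26.3 and 24.95 FPKM with spermidine and 46.8, 52.03 and 48.3 with R837 (-0.90 ± 0.08). Tlr7, the receptor of R837, had 5.01 ± 0.72 FPKM with spermidine and 4.35 ± 0.909 with R837 and did not pass (0.18 ± 0.16, adjusted p = 0.507). The number of fallen NF-κB genes was 4, 4 and 2 without 1 spermidine library each and 6, 12 and 8 without 1 R837 library each.

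Cytokine signalling through JAK and STAT proteins showed falls in its own inhibitors. Socs3 (ENSMUSG00000053113.3, chromosome 11, 117966079 to 117970047), which blocks signalling by IL-6-type cytokines, had 60.6, 57.5 and 61.00 FPKM with spermidine, 148, 189 and 149 with R837 and 5.897, 5.74 and 4.93 in the controls (-1.42 ± 0.11, adjusted p = 0.00168). Stat5a, a transducer of GM-CSF signals, had 39.4, 40.2 and 39.3 FPKM with spermidine, 74.5, 89.97 and 74.03 with R837 and 9.74, 9.63 and 9.71 in the controls (-0.98 ± 0.10). In both genes the spermidine libraries lay well below R837 and well above the controls. Other brakes rose, among them Dusp1, a phosphatase that switches off MAP kinases, with 103, 96.5 and 105 FPKM with spermidine, 59.7, 65.2 and 58.7 with R837 and 69.5, 71.9 and 71.2 in the controls (0.72 ± 0.09). The same direction was seen for Dusp5 (0.60), a nuclear phosphatase of ERK, and Inpp5d (0.46), the lipid phosphatase SHIP1. The Dusp5 call ended without any 1 library other than R837 replicate 2 (adjusted p 0.0538 to 0.0876), and the Inpp5d call without any 1 library other than R837 replicate 2 (adjusted p 0.0584 to 0.121). In all, 3 of 24 brakes rose and 6 fell. The number risen was 1, 1 and 1 without 1 spermidine library each and 1, 3 and 1 without 1 R837 library each, and the number fallen was 2, 2 and 1 without 1 spermidine library each and 4, 6 and 2 without 1 R837 library each.

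Of 21 tested genes of co-stimulation and maturation 6 fell and 0 rose (limma; 8 lower and 0 higher at an unadjusted p under 0.05). Cd40, the receptor through which helper T cells license dendritic cells, had 53.3, 49.5 and 45.2 FPKM with spermidine, 103, 133 and 104 with R837 and 4.77, 4.53 and 4.14 in the controls (-1.18 ± 0.13, adjusted p = 0.00458). Icosl, the ligand of the T cell receptor ICOS, had 15.02, 17.6 and 15.7 FPKM with spermidine and 27.6, 27.5 and 28.6 with R837 (-0.76 ± 0.09). The ligands of CD28 did not pass. Cd86 had 6.34, 6.36 and 7.86 FPKM with spermidine and 6.03, 4.04 and 7.43 with R837 (0.23 ± 0.19, adjusted p = 0.491). Cd80 had 16.7, 18.4 and 15.5 FPKM with spermidine and 20.3, 7.95 and 22.4 with R837, with replicate 2 below all the others (0.11 ± 0.34, adjusted p = 0.863). The number of fallen members was 4, 3 and 3 without 1 spermidine library each and 3, 9 and 5 without 1 R837 library each.

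Of the MHC class II genes the regulator fell. Ciita, the switch for MHC class II transcription, had 18.2, 18.7 and 17.6 FPKM with spermidine, 36.6, 44.3 and 36.02 with R837 and 5.54, 6.56 and 6.004 in the controls (-1.05 ± 0.10, adjusted p = 0.00364). It was the 1 gene to fall of 12 class II genes (8.33%, against 4.34% of all tested genes), and 0 rose by limma. At an unadjusted p under 0.05, 0 class II genes were higher and 4 lower. Of 22 tested class I genes 2 fell (9.09%), the peptide editor gene Tapbpl and the non-classical H2-Q7. The chaperone gene Pdia3 was the 1 that rose (4.55%, against 2.80% of all tested genes). H2-Q7 is named here after its values were seen, and its reads may be shared with near-identical Qa genes. The number of fallen class I genes was 0, 0 and 0 without 1 spermidine library each and 0, 3 and 1 without 1 R837 library each, and that of risen ones 0, 0 and 0 without 1 spermidine library each and 0, 2 and 1 without 1 R837 library each. Genes switched on by interferon were divided, with a list median of 0.00, 3 fallen (6.0%) and 0 risen of 50 by limma. At an unadjusted p under 0.05, 9 interferon genes were lower and 3 higher. The transcription factor gene Irf1 had 44.7, 45.7 and 44.01 FPKM with spermidine and 77.9, 82.8 and 79.6 with R837 (-0.82 ± 0.08), and the others that fell encode guanylate-binding proteins of host defence. Gbp5 had 17.8, 17.5 and 16.6 FPKM with spermidine and 43.5, 28.99 and 44.9 with R837 (-1.11 ± 0.17, adjusted p = 0.013), a call that ended without R837 with spermidine replicate 2 or 3 (0.0581 and 0.0663). Gbp7 changed by -0.86 ± 0.11, and its adjusted p was 0.0532 without R837 with spermidine replicate 3. Irf7 (0.05 ± 0.09, adjusted p = 0.754) and Isg15 (-0.34 ± 0.12, adjusted p = 0.123), hallmark genes of the type I interferon response, did not pass. The number of fallen interferon genes was 3, 2 and 1 without 1 spermidine library each and 3, 5 and 3 without 1 R837 library each.

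**Figure D4:**
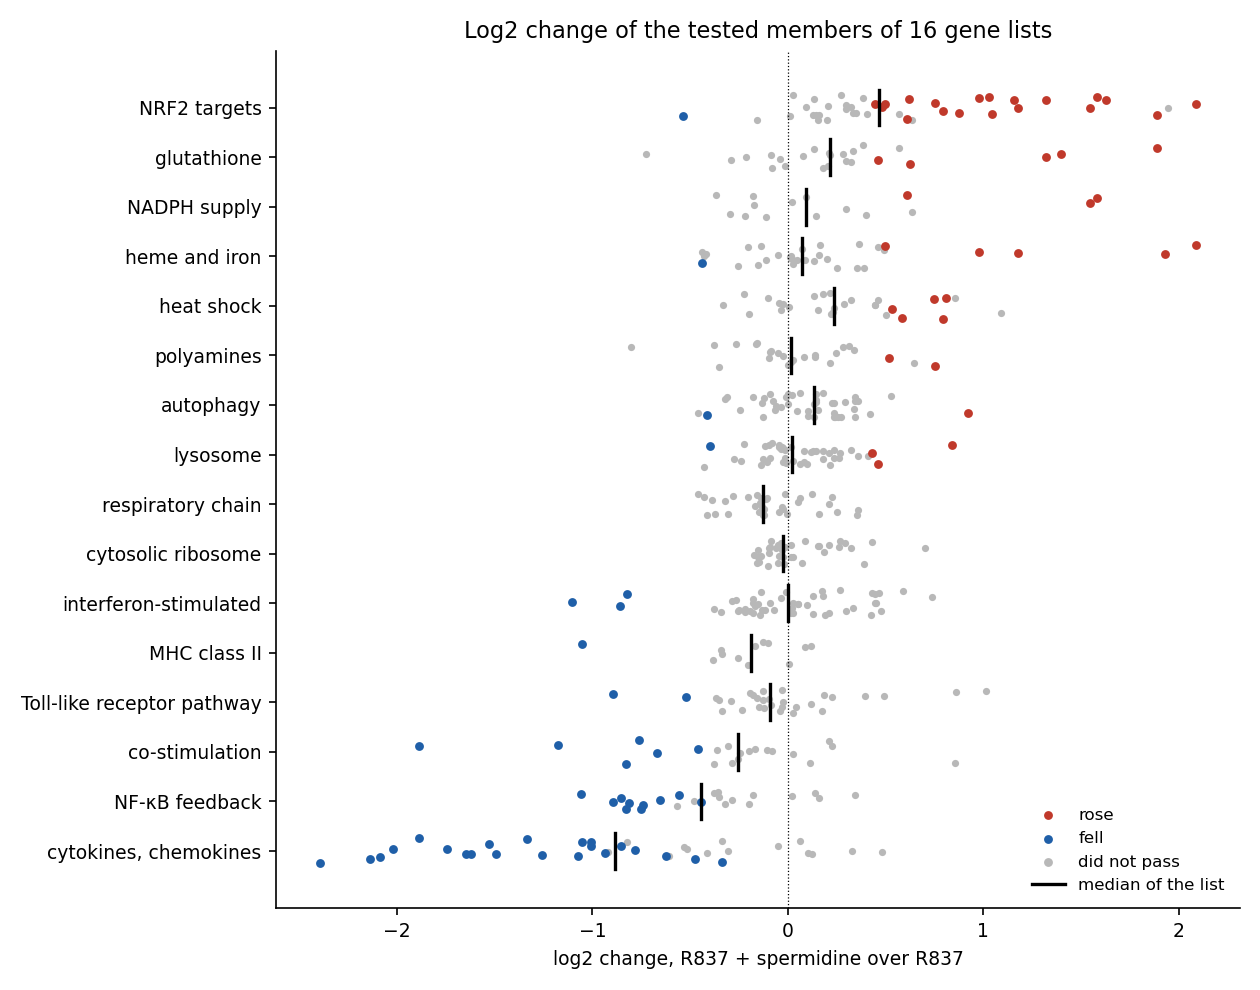
Log2 change (x axis, R837 with spermidine over R837) of the tested members of 16 gene lists, one row per list; points are genes, coloured by whether they rose, fell or did not pass, and bars mark list medians. The NRF2 list lies right of 0 and the cytokine, NF-κB and co-stimulation lists left of it, while the ribosome and respiratory chain lists hold no called gene.

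For the fallen inflammatory genes the same promoter windows were searched on both strands for the NF-κB motif, GGGA and TTCC with any 2 bases between them. It was present for 6 of the 25 cytokine and chemokine genes with an entry and for 3 of the 20 NF-κB genes. The share was 3.55% of the 338 fallen genes, 1.485% of the 202 risen ones, 1.75% of tested genes and 1.632% of all 27025. Those of Gbp5 (chr3:142496684-142496983, + strand) and the neutrophil chemokine gene Cxcl1 (chr5:90890995-90891294, + strand) are given with the match in capitals, which starts 77 bases before the start in Gbp5. In Cxcl1, which changed by -1.05 ± 0.15 (adjusted p = 0.00998), the motif lies on both strands 1 base apart, and the first match starts 71 bases before the start. The Cxcl1 call ended without R837 with spermidine replicates 2 or 3 (0.0502 and 0.0589).
Gbp5: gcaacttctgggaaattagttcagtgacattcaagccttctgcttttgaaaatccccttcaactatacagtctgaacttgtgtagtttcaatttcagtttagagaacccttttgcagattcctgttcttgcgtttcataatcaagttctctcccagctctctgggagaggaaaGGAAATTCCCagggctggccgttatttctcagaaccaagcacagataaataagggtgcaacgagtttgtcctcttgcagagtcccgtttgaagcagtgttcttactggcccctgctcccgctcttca
Cxcl1: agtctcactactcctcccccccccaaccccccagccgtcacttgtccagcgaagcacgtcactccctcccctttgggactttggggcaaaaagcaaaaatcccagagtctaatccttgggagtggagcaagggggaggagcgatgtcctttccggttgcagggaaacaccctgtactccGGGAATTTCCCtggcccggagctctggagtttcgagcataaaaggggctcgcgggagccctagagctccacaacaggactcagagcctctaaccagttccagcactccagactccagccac

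Mir155hg, the precursor transcript of miR-155, a microRNA of activated immune cells, had 0.149, 2.44 and 0.124 FPKM with spermidine and 3.401, 10.7 and 12.2 with R837. Spermidine replicate 2 lay near R837 replicate 1, and the call (-2.42 ± 0.55, adjusted p = 0.0453) ended without R837 with spermidine replicates 1 or 3 (0.127 and 0.154) or R837 replicates 2 or 3 (0.0943 and 0.0987). The mature strand is printed from RefSeq with its seed, bases 2 to 8, in capitals, and was not itself measured.
mmu-miR-155-5p: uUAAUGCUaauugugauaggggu

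Single genes of other kinds fell or rose. Edn1, the vasoconstrictor peptide endothelin 1, had 50.04, 41.2 and 46.2 FPKM with spermidine, 175, 153 and 148 with R837 and 7.56, 6.47 and 7.53 in the controls (-1.77 ± 0.11, adjusted p = 0.000691). Adora2b, a low-affinity adenosine receptor, had 7.39, 6.42 and 6.75 FPKM with spermidine and 19.8, 21.2 and 17.4 with R837 (-1.38 ± 0.11). Nos2 (ENSMUSG00000020826.8, chromosome 11, 78920787 to 78960254), which makes nitric oxide from arginine, had 128, 139.5 and 131 FPKM with spermidine, 238, 250 and 239 with R837 and 37.6, 38.7 and 39.9 in the controls (-0.86 ± 0.08). Arg1, which splits arginine into urea and ornithine, the precursor of polyamines, moved the other way at a low level, with 4.57, 5.099 and 4.91 FPKM with spermidine and 2.27, 2.11 and 2.08 with R837 (0.89 ± 0.09). Ncf1, a cytosolic subunit of the phagocyte NADPH oxidase, had 106, 96.7 and 103 FPKM with spermidine and 167, 169 and 156 with R837 (-0.68 ± 0.08). For these genes no spermidine library overlapped an R837 library, which held for all 796 called genes and for 33.4% of all tested genes. Of 13 tested genes of the NADPH oxidase and of arginine and nitric oxide metabolism, 2 fell (Nos2 and Ncf1), 1 rose (Arg1) and 10 did not pass.

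Of 37 tested genes of adhesion and matrix breakdown 8 fell and 2 rose. Mmp14, a membrane-bound metalloproteinase, had 25.2, 22.6 and 23.6 FPKM with spermidine, 47.7, 53.8 and 44.2 with R837 and 8.58, 8.95 and 8.89 in the controls (-0.997 ± 0.10). Icam1, to which leukocyte integrins bind, had 174, 179.7 and 176 FPKM with spermidine and 305, 378 and 308 with R837 (-0.89 ± 0.11). The number fallen was 3, 3 and 3 without 1 spermidine library each and 5, 8 and 4 without 1 R837 library each. Lcn2, a siderophore-binding protein and a neutrophil marker, had 49.4, 46.7 and 42.3 FPKM with spermidine and 84.9, 97.5 and 87.02 with R837 (-0.95 ± 0.10). Csf3r, the G-CSF receptor and also on the neutrophil list, had a log2 change of -0.96, with 5.98, 5.34 and 5.63 FPKM with spermidine and 11.6, 11.3 and 12.8 with R837. Summed over the 17 neutrophil markers, the FPKM was 5665, 6598 and 6566 with spermidine, 4373, 1883 and 5483 with R837 and 6082, 5493 and 5323 in the controls. Most of this sum is Chil3, given above. Without Chil3 it was 183, 195 and 181 with spermidine, 240.2, 218 and 574 with R837 and 223, 207 and 227 in the controls, so each spermidine library lay below each R837 library. Of the 9 neutrophil markers tested 2 fell (22.2%, against 4.34% of all tested genes), Lcn2 and Csf3r, and 0 rose by limma. At an unadjusted p under 0.05, 5 were lower and 1 higher. The median change was -0.95 over all libraries and -0.99 without R837 replicate 2. It was -0.66 without R837 replicate 3 and -0.38 without R837 replicates 2 and 3. The part of these markers in the change of Lcn2 and Csf3r was not tested.

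Transcription factors that set myeloid identity moved too. Cebpa, a factor of granulocyte and monocyte fate, had 35.00, 37.00 and 37.6 FPKM with spermidine and 15.8, 23.6 and 16.9 with R837 (0.95 ± 0.15), a call that ended without R837 with spermidine replicates 1, 2 or 3 (0.0538, 0.0689 and 0.0759) or R837 replicate 1 (0.05). Of 25 tested factors of this list 5 fell, and the number fallen was 1, 1 and 1 without 1 spermidine library each and 2, 7 and 4 without 1 R837 library each.

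Early response factors, which cells switch on within minutes to hours of a signal, split into 4 risen and 9 fallen of 28. Fosl1, an AP-1 subunit, had 9.54, 7.31 and 8.72 FPKM with spermidine, 2.97, 2.24 and 2.31 with R837 and 1.73, 1.52 and 0.871 in the controls (1.44 ± 0.13, adjusted p = 0.00283). Batf, another AP-1 family member that partners IRF4 and IRF8, had 27.99, 20.7 and 24.6 FPKM with spermidine, 68.01, 78.6 and 56.8 with R837 and 10.5, 10.2 and 11.04 in the controls (-1.43 ± 0.15). Both were above the controls with R837, and the spermidine libraries lay further from the controls for Fosl1 and closer to them for Batf. Egr2, a zinc finger factor induced by IL-4 and GM-CSF, fell (-0.74). Klf4, a factor of monocyte differentiation, rose (0.65), a call that ended without R837 with spermidine replicates 1, 2 or 3 (0.0681, 0.0682 and 0.0889) or R837 replicate 1 (0.0658). The number risen was 1, 1 and 1 without 1 spermidine library each and 1, 5 and 2 without 1 R837 library each, and the number fallen was 3, 3 and 2 without 1 spermidine library each and 3, 11 and 4 without 1 R837 library each.

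Genes of polyamine metabolism, the pathway of the added compound, mostly did not pass. Of 25 tested members 2 rose and 0 fell (limma; 3 higher and 3 lower at an unadjusted p under 0.05), with a median of 0.01. Sat1, the acetyltransferase that starts spermidine breakdown and export, had 64.3, 60.7 and 67.6 FPKM with spermidine, 41.6, 31.8 and 40.5 with R837 and 59.5, 55.3 and 56.6 in the controls (0.75 ± 0.12, adjusted p = 0.0165). The R837 libraries were the lowest of the series. Leaving out R837 with spermidine replicates 1, 2 or 3 ended this call (0.0635, 0.0585 and 0.082). Adi1, of the pathway that recovers methionine, had 11.4 ± 0.532 FPKM with spermidine, 7.65 ± 0.72 with R837 and 30.7 ± 2.65 in the controls, and its call (0.52) ended without any 1 library other than R837 replicate 2 (adjusted p 0.0556 to 0.127). The genes for synthesis and oxidation gave no call: Odc1, ornithine decarboxylase, had 64.97 ± 10.03 FPKM with spermidine and 58.7 ± 6.19 with R837 (0.14 ± 0.13), and Smox, spermine oxidase, 17.4 ± 0.786 and 16.5 ± 1.74 (0.08 ± 0.10).

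Spermidine is widely used to induce autophagy, the delivery of cell contents to the lysosome. Of 45 tested autophagy genes 1 rose and 1, Atg9a, fell, with a median of 0.13. Each was 2.22%, against 2.80% risen and 4.34% fallen of all tested genes. The gene that rose was Bnip3, a mitophagy receptor also induced by low oxygen, with 8.74, 10.1 and 8.65 FPKM with spermidine and 4.85, 4.24 and 4.01 with R837 (0.92 ± 0.11). The number of fallen autophagy genes was 0, 0 and 0 without 1 spermidine library each and 0, 1 and 0 without 1 R837 library each. Of 44 lysosomal genes 3 rose (6.82%), Lipa, Atp6v1h and Tfe3, and 1 fell (2.27%), Mcoln1 (median 0.02). The number risen was 1, 0 and 0 without 1 spermidine library each and 1, 3 and 2 without 1 R837 library each. Lipa, the lysosomal acid lipase that frees cholesterol from its esters, had 388, 428 and 421 FPKM with spermidine, 247, 193 and 254 with R837 and 443, 427 and 425 in the controls (0.84 ± 0.12), a call that ended without R837 with spermidine replicate 2 or 3 (limma adjusted p = 0.0583 and 0.0665).

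Central metabolism changed at single genes. Pcx, pyruvate carboxylase, which refills the citric acid cycle, had 4.85, 4.795 and 4.61 FPKM with spermidine and 1.95, 2.45 and 1.89 with R837 (0.90 ± 0.10). Of 34 genes of glycolysis and the hypoxia response 3 rose, Bnip3, Pgk1 and Egln3, and 3 fell, Slc2a6, Eno2 and Hk2. Each was 8.82%, against 2.80% risen and 4.34% fallen of all tested genes. The number risen was 2, 1 and 1 without 1 spermidine library each and 2, 9 and 2 without 1 R837 library each, and the number fallen was 1, 0 and 0 without 1 spermidine library each and 2, 3 and 1 without 1 R837 library each. Acod1, which makes itaconate, did not pass (-0.32 ± 0.08, adjusted p = 0.0651; 0.0338 without R837 replicate 2).

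Cytosolic chaperones, which refold damaged proteins, rose in 5 of 28 cases and fell in 0 (limma; 12 higher and 1 lower at an unadjusted p under 0.05). Hsph1, an HSP110 co-chaperone, had 24.2, 25.7 and 24.05 FPKM with spermidine and 14.1, 12.4 and 14.4 with R837 (0.81 ± 0.09). The near-identical HSP70 genes Hspa1a and Hspa1b changed by 0.79 and 0.75, and reads shared between them make their separate values uncertain. Without R837 with spermidine replicate 3 neither passed (0.0502 and 0.0502). The number risen was 4, 3 and 1 without 1 spermidine library each and 3, 6 and 4 without 1 R837 library each. Of 36 genes of the integrated stress response 4 fell and 0 rose (limma; 2 higher and 11 lower at an unadjusted p under 0.05). Nupr1, a stress-induced chromatin protein, had a log2 change of -0.86, a call that ended without R837 with spermidine replicates 2 or 3 (0.065 and 0.0719) or R837 replicate 1 (0.0538). The number fallen was 1, 0 and 0 without 1 spermidine library each and 0, 4 and 1 without 1 R837 library each. Among 27 p53 targets 3 rose (11.1%), Trp53inp1, Plk3 and Gadd45g, and 1 fell (3.70%), Btg2. The number of risen p53 targets was 1, 0 and 0 without 1 spermidine library each and 2, 3 and 2 without 1 R837 library each. Of 43 cell cycle genes 5 fell (11.6%) and 1 rose (2.33%), against 4.34% and 2.80% of all tested genes. Among those that fell was E2f8, a repressor of the E2F family, at -0.79 ± 0.09. The number fallen was 1, 1 and 1 without 1 spermidine library each and 2, 5 and 2 without 1 R837 library each.

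Large housekeeping lists gave no call by limma in either direction. For the respiratory chain 0 of 36 genes were higher and 5 lower at an unadjusted p under 0.05, and for mitochondrial ribosomal proteins 1 and 5 of 33. For cytosolic ribosomal proteins the numbers were 1 higher and 0 lower of 37, and for ribosome biogenesis 1 and 5 of 34. The list medians ran from -0.13 to -0.03. The 37 genes of the mitochondrial genome are listed at 0 in every library, so they give no information.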

How the data were processed

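Messenger RNA of mouse monocyte-derived dendritic cells was sequenced in 9 libraries, of which 6 entered the comparison. What the authors deposited are FPKM, with 1 value for each gene in each library, as the file headers show. HISAT2 and StringTie, and the builds mm8 and mm10 with no role, are named in the submitters' processing notes. The sources used here give no versions, annotation or filters. Of 52550 deposited identifiers 99.7% matched GENCODE mouse release 21 (mm10), the source of symbols and positions, and values of 73 symbols with several identifiers were summed.

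FPKM hold no counts, so no count test was run. Depth was estimated from the step between low values, and a unit may be a read or a read pair. Only 29.6 to 34.0% of these values lay within 0.05 of a whole number of steps, so the depths are rough. At these depths values near 1 FPKM rest on few fragments. Values were taken as log2(FPKM + 1), and 11140 genes that reached 1 FPKM in 3 or more of the 6 libraries were fitted with limma 3.58.1 in R 4.3.3 (lmFit, eBayes with a trend), two-sided, with Benjamini-Hochberg adjustment over all of them and a threshold of 0.05. The procedure was tested on simulated data in which all 6 libraries had the same spread for a gene. That test does not cover uneven libraries such as R837 replicates 2 and 3. In fits without 1 or 2 libraries the spread is pooled, and where 1 R837 library is left it is assumed to vary like the others.

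The comparison, gene lists and named genes were chosen with earlier results of these data known, so list counts are descriptions and no list was tested as a set. The naming rule took the 20 largest rises and 20 largest falls among called genes with a mean of at least 5 FPKM and no overlap, the 10 largest gains and 10 largest losses in FPKM, the 4 largest changes of each list and a fixed set, 235 genes in all. Values are given for 101 tested genes, 21 of them outside the rule and chosen after their values were seen. Alternatives were TPM, 2 other scalings, 2 other pseudocounts, 2 other filters, library weights, all 9 libraries in the fit, a block for the replicate number, and fits without 1 or 2 libraries. RefSeq promoter and miRNA tables (GRCm38.p6) gave the sequences. They hold no promoter entry for Hmox1 or Slc40a1. Sequences printed are those of the called genes with the largest change that held each motif.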

Additional observations from a re-analysis of the deposited data

Results flagged for a closer look

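Marker genes below the filter, which no comparison uses, gave signals above the highest control in R837 replicates 2 and 3. The untested red blood cell markers summed to 280.1 FPKM in R837 replicate 2 and 1993 FPKM in replicate 3, against at most 11.8 in a control. In replicate 3 the untested neutrophil markers summed to 77.2 FPKM (highest control 4.53) and the untested B cell markers to 65.2 FPKM (highest control 1.5). Untested markers of mast cells, basophils and eosinophils summed to 13.6 FPKM in replicate 2 and 40.3 in replicate 3, against 3.35 in the highest control. Stromal and endothelial markers reached 2.32 FPKM in replicate 3, against 0.537. The part of these transcripts in the comparison was not tested beyond the fits without these libraries.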

How the results depend on the processing

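The direction of the 84 called genes given with values was the same under each of 17 alternatives that tested them, and 47 passed in each. With a filter at a mean of 5 FPKM 77 of them were tested and passed, and calls lost numbered 14 with no filter and 1 with TPM. Counts of risen and fallen genes moved by over 1.5 times under several settings. With no filter on low values 150 rose and 193 fell, with all 9 libraries in the fit 664 and 958, and with library weights 829 and 1035. Leaving out 1 library gave 65 to 500 risen and 85 to 600 fallen genes, the lowest without R837 with spermidine replicate 3 and the highest without R837 replicate 2. Without R837 replicates 2 and 3 the counts were 137 and 118. TPM, other pseudocounts, the filter at a mean of 5 FPKM, median-of-ratios and quantile scaling gave 243 to 359 risen and 382 to 503 fallen genes. The causes were not tested.

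With the replicate number as a block 97 genes rose and 134 fell, and 19 of the 84 called genes given with values no longer passed. The deviations of same-numbered libraries from their group means correlated at 0.0557, -0.0633 and 0.0730 for numbers 1, 2 and 3, and 2 of the 6 libraries correlated best with the same number of the other group. With 3 libraries in each group, these correlations cannot decide whether same-numbered libraries share a culture or a batch. The labels give a replicate number and no pairing, so the main fit holds no block.

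Changes of sign were confined to uncalled genes near 0. The Cd80 log2 change was -0.25 with library weights and -0.26 without R837 replicates 2 and 3, and ran from -0.33 to 0.37 over fits without 1 library, lowest without R837 replicate 2. The Fth1 log2 change ran from -0.025 to 0.041 and the Irf7 log2 change from -0.00185 to 0.12 over the same fits. The Tlr7 log2 change was -0.036 without R837 replicates 2 and 3, and the Lyz2 log2 change -0.13 with quantile scaling.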

Other observations

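Other called genes lay outside the programmes above. Tnfrsf14 (HVEM), a receptor of the tumour necrosis factor family that binds LIGHT and BTLA, had 4.47, 4.15 and 4.28 FPKM with spermidine and 11.2, 12.99 and 13.01 with R837 (-1.34 ± 0.09). H1f0, a linker histone of non-dividing cells, had 4.83, 2.83 and 3.36 FPKM with spermidine and 13.2, 12.6 and 10.4 with R837 (-1.50 ± 0.17). The controls had 13.3, 13.8 and 16.6 FPKM, so only the R837 with spermidine libraries were low. Cyb5a, cytochrome b5, an electron carrier of the endoplasmic reticulum, had 104, 82.3 and 65.7 FPKM with spermidine and 31.1, 28.6 and 37.6 with R837 (1.33 ± 0.18).

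Of 19 tested genes known to respond to IL-4, which the medium held, 1 rose (5.26%), Arg1. The 5 that fell (26.3%) were Ccl17, Ccl22, Socs1, Cish and Egr2. Of 28 cytokine receptor genes 1 rose (3.57%), Il10ra, and 4 fell (14.3%), Csf3r, Ifngr1, Il17ra and Tnfrsf1b. Of 31 proteasome genes 3 rose (9.68%), Psma5, Psmd1 and Psmd11, and 1 fell (3.23%), Psmd8. Over all tested genes the shares were 2.80% risen and 4.34% fallen. For the IL-4 list the number fallen was 3, 2 and 2 without 1 spermidine library each and 4, 6 and 3 without 1 R837 library each. For the cytokine receptors it was 1, 1 and 1 without 1 spermidine library each and 2, 8 and 3 without 1 R837 library each, and the number of risen proteasome genes was 1, 0 and 0 without 1 spermidine library each and 0, 5 and 1 without 1 R837 library each.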
